A study of Mus musculus with 8 samples.

Results

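Saa1, Saa2, Saa3, Hp, Hpx, Cp and Orm1 encode acute-phase proteins, which are best known as products of the liver and were measured here as transcripts of whole mouse lung. The 7 genes were chosen by name, with earlier results of these data known but without use of their measured values in the rule. They were found by their gene identifiers in the raw count files of 8 mice. They are 7 of the 55416 genes listed, and all 7 are among the 18560 genes that passed a filter on low counts. Saa1 and Saa2 had fewer than 10 counts in each control library, and Orm1 in all but control mouse 2, so these genes passed the filter through the treated groups, and a difference in them was built into that step.

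The study asked whether YW3-56, an inhibitor of the peptidylarginine deiminases, changes the course of endotoxin shock in mice, and sequenced lung RNA at 1 time. Endotoxin is lipopolysaccharide (LPS), a component of the outer membrane of Gram-negative bacteria that is sensed by Toll-like receptor 4. All mice were female C57BL/6J, 6 to 8 weeks old, and a lung lobe of the same side was taken about 24 h after the last injection. Control mice 1, 2 and 4 received the solvent DMSO by vein and saline into the peritoneal cavity. LPS mice 1, 6 and 7 received 35 mg/kg LPS into the peritoneal cavity, and no DMSO injection is named for them. Solvent and YW3-56 therefore cannot be told apart in the comparison of both LPS-treated groups. Nor can LPS and a lack of the solvent injection in the comparison of LPS with control mice. The LPS_YW3-56 mice 2 and 5, called dual-treated below, received 10 mg/kg YW3-56 in DMSO, by a route not named for this group, 30 min before the same dose of LPS. The methods name 3 sequenced mice in each group, while the authors' figure on these data and the files used here have 2 dual-treated libraries.

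Each library held between 19061949 and 20908608 counts. Values per mouse are CPM, counts scaled to a common library total, after TMM scaling, which sets libraries to a common scale by the bulk of their genes. LPS mice 6 and 7 stood apart from the other 6 mice in genes of squamous epithelium and skeletal muscle, tissues that a lung lobe normally lacks. The 13 squamous markers, led by Krt13, summed to 1.60, 840.2 and 2231 CPM in LPS mice 1, 6 and 7, to 11.4, 15.0 and 15.4 CPM in the control mice and to 11.5 and 25.7 CPM in the dual-treated mice. The 10 muscle markers, led by Acta1, summed to 17.5, 501 and 1288 CPM in the LPS mice, 10.5, 19.8 and 14.7 CPM in the control mice and 5.67 and 8.03 CPM in the dual-treated mice. Both lists were therefore high in LPS mice 6 and 7 alone, and the calls of the 7 genes, with many of the list counts, are given with and without those libraries.

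The acute-phase response is the change in secreted plasma proteins that follows infection or injury. In the liver it is driven by interleukin 6 and related cytokines through STAT3, and by interleukin 1 and tumour necrosis factor through NF-kB and C/EBP factors. Epithelial cells, macrophages, neutrophils and fat cells can express some of the same genes outside the liver, and Saa3 in the mouse is known mainly as such a local product.

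The serum amyloid A proteins are small apolipoproteins of high-density lipoprotein that also act on leukocytes. Saa3 had 7.34, 5.26 and 19.6 CPM in control mice 1, 2 and 4, 6561, 9515 and 4355 CPM in LPS mice 1, 6 and 7, and 1762 and 1245 CPM in dual-treated mice 2 and 5. The groups did not overlap, control mouse 4 was the highest of its group, and LPS mouse 6 was the highest of all. Saa3 rose 633-fold with LPS (log2 fold change 9.31, SE 0.621, adjusted p = 2.24e-06, 95% interval 7.91 to 10.70) by edgeR's quasi-likelihood test, with p-values adjusted over all 18560 genes. In the dual-treated mice it was 139.8-fold above control (log2 fold change 7.13, SE 0.580, adjusted p = 0.000103) and 4.53-fold below LPS (log2 fold change -2.18, SE 0.523, adjusted p = 0.00572). Without control mouse 4 the log2 fold changes over control were 10.08 for LPS and 7.87 for the dual treatment. In bulk tissue, fewer cells of a type and less RNA per cell cannot be told apart, nor can more cells and more RNA, here or in the results that follow.

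Saa3 alone took a visible share of the lung's counts. It made up 0.531% (interval 0.528 to 0.534%) of all counts in LPS mouse 1, 0.850% (interval 0.846 to 0.854%) in LPS mouse 6 and 0.405% (interval 0.402 to 0.408%) in LPS mouse 7, with exact Clopper-Pearson intervals at 95%. The share was 0.195% (interval 0.193 to 0.197%) in dual-treated mouse 2 and 0.136% (interval 0.134 to 0.137%) in dual-treated mouse 5. Control mice 1, 2 and 4 gave 0.000787% (interval 0.000666 to 0.000923%), 0.000566% (interval 0.000466 to 0.000681%) and 0.00208% (interval 0.00188 to 0.00228%). The 7 genes together held 1.09% (interval 1.09 to 1.10%), 1.46% (interval 1.46 to 1.47%) and 1.07% (interval 1.06 to 1.07%) of the counts in the LPS mice, 0.568% (interval 0.565 to 0.572%) and 0.351% (interval 0.349 to 0.354%) in the dual-treated mice, and 0.0738% (interval 0.0726 to 0.0751%), 0.104% (interval 0.103 to 0.106%) and 0.112% (interval 0.111 to 0.114%) in the control mice. Hence Saa3 and Hp supplied most of that total in every treated mouse. These intervals, and the floors and ratios of counts given below, cover counting error only.

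Saa1 and Saa2 are the forms that circulate in plasma after release from the liver. Saa1 had 0.343, 0.188 and 0.276 CPM in the control mice, 162, 275 and 139 CPM in the LPS mice and 25.0 and 13.9 CPM in the dual-treated mice. Saa2 had 0.0489, 0 and 0.0460 CPM, 60.6, 74.4 and 39.7 CPM and 12.6 and 2.15 CPM in the same order. Both genes were close to absent in every control mouse, highest in LPS mouse 6, and between the other groups in both dual-treated mice. Saa1 rose 701-fold with LPS (log2 fold change 9.45, SE 0.454, adjusted p = 6.16e-07). In the dual-treated mice Saa1 was 70.9-fold above control (log2 fold change 6.15, SE 0.480, adjusted p = 8.11e-05) and 9.88-fold below LPS (log2 fold change -3.31, SE 0.344, adjusted p = 4.99e-05). For Saa2 the control libraries held 1, 0 and 1 counts, so its fold is poorly bounded above. The ratio of Saa2 in LPS to control mice was 1841 with a counting interval of 509 to 15211, from 3021 and 2 counts, and that of dual-treated to control mice was 231 with an interval of 63.4 to 1915. The fitted Saa2 values passed the test in each comparison, with adjusted p = 9.63e-06 for LPS against control, 0.00197 for dual treatment against control and 0.00184 for dual treatment against LPS (log2 fold change -2.99, SE 0.583). That last value was -4.78 without dual-treated mouse 2 and -2.24 without mouse 5, and the value over control was 5.80 and 8.35 against 7.61 with both.

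Hp encodes haptoglobin, which binds free haemoglobin, and was already well expressed in the control lung. Hp had 551, 813 and 908 CPM in the control mice, 5906, 5590.5 and 5855 CPM in the LPS mice and 2738 and 1712 CPM in the dual-treated mice. The LPS mice lay close together, the dual-treated mice lay well below them, and all treated mice were above all control mice. Hp rose 7.64-fold with LPS (log2 fold change 2.93, SE 0.236, adjusted p = 5.73e-06). In the dual-treated mice it was 2.94-fold above control (log2 fold change 1.55, SE 0.242, adjusted p = 0.00288) and 2.60-fold below LPS (log2 fold change -1.38, SE 0.257, adjusted p = 0.00141).

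Hpx encodes hemopexin, which binds free haem and delivers it to the receptor Lrp1. Hpx had 0.881, 1.60 and 1.75 CPM in the control mice, 61.0, 55.0 and 85.7 CPM in the LPS mice and 4.31 and 3.25 CPM in the dual-treated mice. LPS mouse 7 was the highest, and the dual-treated mice sat just above the control mice. With LPS, Hpx rose 47.4-fold (log2 fold change 5.57, SE 0.273, adjusted p = 6.16e-07). The dual-treated mice were 17.8-fold below the LPS mice (log2 fold change -4.15, SE 0.291, adjusted p = 7.64e-06, 95% interval -4.80 to -3.50) and 2.66-fold above control (log2 fold change 1.41, SE 0.304, adjusted p = 0.0135). The difference from control did not pass without dual-treated mouse 2 (log2 fold change 1.17, adjusted p = 0.112 by edgeR).

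Cp encodes ceruloplasmin, the copper-carrying ferroxidase of plasma. Cp had 128, 147 and 130.2 CPM in the control mice, 680.4, 769.6 and 913 CPM in the LPS mice and 553 and 242 CPM in the dual-treated mice. Dual-treated mouse 2 came near the LPS mice and mouse 5 stayed nearer to control. Cp rose 5.83-fold with LPS (log2 fold change 2.54, SE 0.270, adjusted p = 2.93e-05) and was 2.94-fold above control in the dual-treated mice (log2 fold change 1.56, SE 0.282, adjusted p = 0.00627). It was 1.98-fold lower in dual-treated than in LPS mice (log2 fold change -0.99, SE 0.293, adjusted p = 0.0163), and this call was the least stable of the 21 tests of the 7 genes. It did not pass with scaling by library size only (log2 fold change -0.67, adjusted p = 0.0835 by edgeR) or without LPS mice 6 and 7 (-0.78, adjusted p = 0.130), and without dual-treated mouse 2 it was -1.73. With a fold just under 2 it also misses the criterion of the study. The value over control was 0.81 without dual-treated mouse 2.

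Orm1 encodes orosomucoid 1, also called alpha-1-acid glycoprotein, a plasma glycoprotein that binds lipophilic compounds. Orm1 had 0.440, 0.986 and 0.322 CPM in the control mice, 83.1, 109 and 86.2 CPM in the LPS mice and 32.9 and 5.31 CPM in the dual-treated mice. The LPS mice lay close together, while the dual-treated mice were far apart, with mouse 2 well above mouse 5. Orm1 rose 157-fold with LPS (log2 fold change 7.30, SE 0.716, adjusted p = 1.83e-05). In the dual-treated mice it was 32.4-fold above control (log2 fold change 5.02, SE 0.740, adjusted p = 0.00221) and 4.86-fold below LPS (log2 fold change -2.28, SE 0.584, adjusted p = 0.00799). The difference from LPS did not pass without LPS mice 6 and 7 (log2 fold change -2.13, adjusted p = 0.0529 by edgeR), and was -4.15 without dual-treated mouse 2 and -1.52 without mouse 5. Over control, the dual-treated value was 3.15 without mouse 2, 5.77 without mouse 5 and 5.62 without control mouse 2, and the LPS value was 7.90 without control mouse 2.

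**Figure D1:**
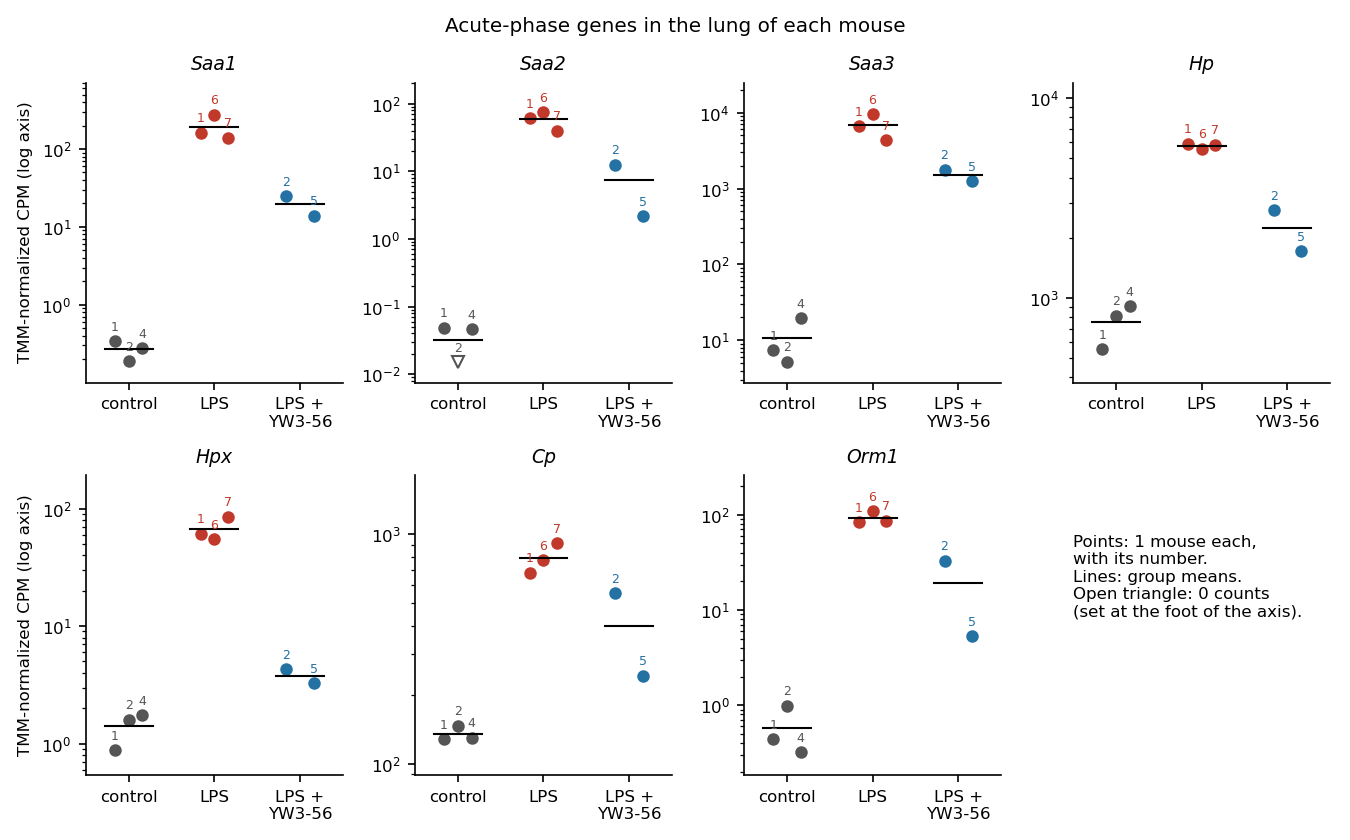
TMM-normalized CPM of the 7 acute-phase genes in each mouse, on log axes, with a line at each group mean and an open triangle for the control mouse with 0 counts of Saa2. In each panel the dual-treated mice 2 and 5 lie above the control mice and below the LPS mice, as for Hp with 2738 and 1712 CPM.

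All 7 genes were called higher in LPS than in control mice, where 32.6% of the tested genes were called higher and 33.9% lower. All 7 were called higher in dual-treated than in control mice, where the shares over all genes were 9.13% higher and 7.02% lower, and all 7 were called lower in dual-treated than in LPS mice, where 31.7% of genes were higher and 27.4% lower. Every LPS mouse was above every control mouse in all 7, against 34.7% of all genes. Every dual-treated mouse was above every control mouse, against 26.1% of genes, and below every LPS mouse, against 32.9%. The full order of control, dual-treated and LPS mice without overlap was found for 8.11% of genes, 1505 in number. The genes were picked with earlier results known, so these counts describe them and are no test. The comparisons share their control and LPS libraries and are not independent of each other.

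The mean of the dual-treated mice, as a percent of the LPS mean in CPM, was 5.62 for Hpx, 10.1 for Saa1, 12.6 for Saa2, 20.6 for Orm1, 22.1 for Saa3, 38.5 for Hp and 50.5 for Cp. Hpx thus had the smallest percent and Cp the largest, for the mean of 2 unlike mice. Without dual-treated mouse 2 Saa2 was further below LPS than Hpx, with a log2 difference of -4.78, against -4.39 as the lowest value of Hpx with any 1 mouse left out. Whether these reductions differ among the genes was not tested. The 95% intervals of the log2 difference from LPS were -4.80 to -3.50 for Hpx and -4.08 to -2.53 for Saa1, which lie apart from those of Hp (-1.95 to -0.80) and Cp (-1.65 to -0.33). The intervals of Saa2 (-4.29 to -1.68) and Orm1 (-3.59 to -0.97) are wide and cover part of both ranges, as does that of Saa3.

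**Figure D2:**
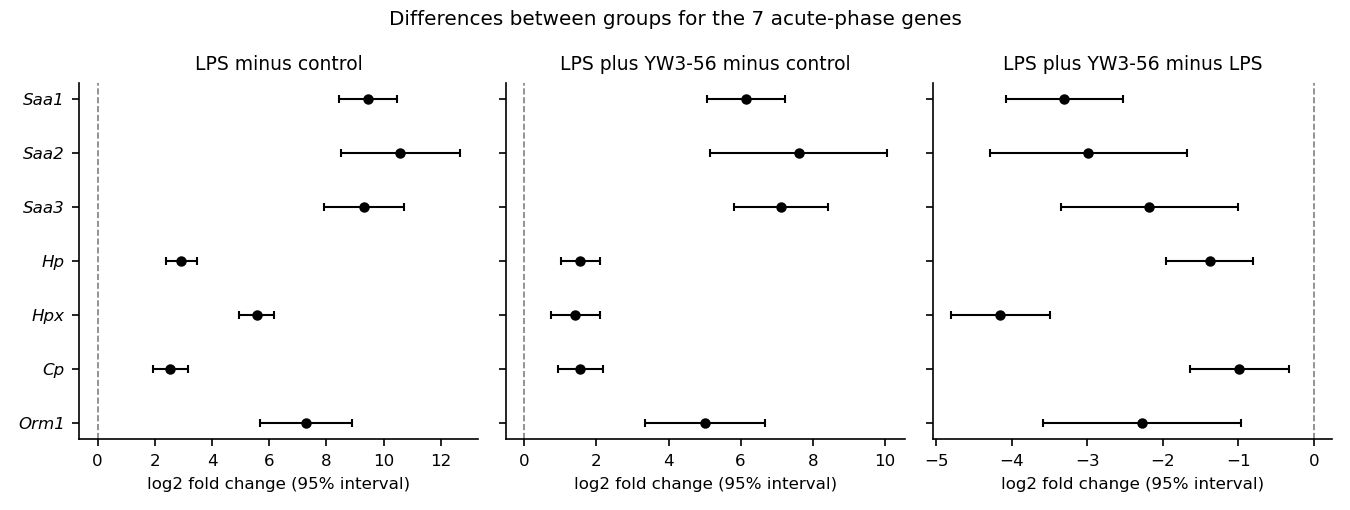
Log2 fold changes of the 7 genes with 95% intervals in the 3 comparisons, from 1 edgeR fit to all 8 libraries, with the dashed line at no difference. The intervals lie to the right of 0 in both comparisons with control and to the left of 0 for dual treatment minus LPS, with Cp nearest to 0 at -0.99.

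Without LPS mice 6 and 7 the LPS group is 1 mouse, which is assumed to vary like the others. LPS mouse 1 alone had squamous and muscle marker sums within or below the range of the control mice, and 6561 CPM of Saa3. In that fit all 7 genes still rose with LPS, with log2 fold changes of 9.21 for Saa1, 10.66 for Saa2, 9.26 for Saa3, 2.97 for Hp, 5.43 for Hpx, 2.34 for Cp and 7.15 for Orm1. All 7 were still above control in the dual-treated mice, from 1.41 for Hpx to 7.61 for Saa2. Of the falls from LPS to dual treatment, those of Saa1 (-3.07), Saa2 (-3.05), Saa3 (-2.13), Hp (-1.42) and Hpx (-4.02) still passed, and those of Cp and Orm1 did not. Scaling mattered for the transcriptome as a whole. With library size only, calls between LPS and control mice numbered 4336 higher and 7832 lower, in place of 6046 and 6300, and the median of all genes moved by -0.28 on the log2 scale. Between dual-treated and LPS mice they numbered 7889 higher and 3225 lower, in place of 5875 and 5085, and the median moved by 0.32. Apart from Cp between dual-treated and LPS mice, the 7 genes kept their calls under that scaling.

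Levels can be compared between genes only per length, and here they are given as TMM-normalized CPM per kilobase of annotated exons, mean ± SD over the mice of a group. In the control lung Hp led with 445 ± 108 (n = 3), followed by Cp with 12.1 ± 0.917, Saa3 with 3.44 ± 2.48 and Hpx with 0.936 ± 0.308. Orm1 (0.425 ± 0.258), Saa1 (0.102 ± 0.0295) and Saa2 (0.0125 ± 0.0109) closed the order. Hp was therefore the 1 gene of these 7 with a high basal level. The spreads of Hpx and Orm1, neighbours in the order, overlap, but Hpx was above Orm1 in every control mouse. In LPS mice Hp reached 3398 ± 99.6 (n = 3) and Saa3 2184 ± 830.3, and then came Saa1 (73.0 ± 27.8), Cp (70.3 ± 10.5), Orm1 (67.6 ± 10.1), Hpx (44.7 ± 10.8) and Saa2 (23.1 ± 6.91). Saa1, Cp and Orm1 did not differ beyond their spread. In dual-treated mice the order was Hp (1307 ± 426, n = 2), Saa3 (482 ± 117), Cp (35.5 ± 19.6), Orm1 (13.9 ± 14.2), Saa1 (7.39 ± 2.97), Saa2 (2.92 ± 2.92) and Hpx (2.51 ± 0.499). Hpx thus took the last place, although Saa2 and Hpx did not differ beyond their spread there, nor did Cp and Orm1 or Orm1 and Saa1.

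The order at the top in the LPS mice depends on the length used. Saa3 has 3118 exonic bases in all and 1007 in its canonical transcript, and Hp has 1702 and 1346. Per kilobase of canonical transcript, a scale chosen after the data were seen, Saa3 led in the LPS mice with 6763 ± 2571 and Hp followed with 4297 ± 126. Then came Saa1 (254), Cp (189), Orm1 (112), Saa2 (89.3) and Hpx (44.8). On this scale Saa3 and Hp did not differ beyond their spread in the LPS mice. Their spreads overlap in the dual-treated mice as well (1493 ± 363 and 1653 ± 539), but Hp was above Saa3 in both of those mice. Per kilobase of the longest transcript Hp stayed first in the LPS mice (4297, and 2568 for Saa3). The order of Hp and Saa3 in the LPS mice thus turns on the length chosen, and in the control and dual-treated mice Hp was first on all 3 scales.

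The 2 mice of the dual treatment were not alike. In all 7 genes mouse 2 was above mouse 5, against 48.0% of all genes. The ratio of mouse 2 to mouse 5 was 6.18 for Orm1, 5.84 for Saa2, 2.29 for Cp, 1.79 for Saa1, 1.60 for Hp, 1.42 for Saa3 and 1.33 for Hpx. Orm1 and Saa2 therefore stood furthest apart, and each group of dual-treated values rests on 2 mice. Adipocyte transcripts moved with this difference. The 10 adipocyte markers, led by Cfd, summed to 692 and 77.4 CPM in dual-treated mice 2 and 5, 101, 469 and 119 CPM in the control mice and 94.3, 226 and 297 CPM in the LPS mice. They were highest in dual-treated mouse 2 and in control mouse 2, where Saa3 was the lowest of its group and Orm1 the highest. The airway genes Muc5b (314 and 70.4 CPM) and Reg3g (230.0 and 49.1 CPM) were also higher in dual-treated mouse 2 than in mouse 5, but the sums of the 9 club and airway secretory markers (24935 and 26840.3 CPM) and of the 7 ciliated cell markers (451 and 527 CPM) were lower. The part of fat or airway tissue in the difference between these mice was not tested.

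In the GRCm39 assembly Saa3 (chr7:46361422-46365576, minus strand), Saa1 (chr7:46389916-46392547, minus strand) and Saa2 (chr7:46401214-46403737, plus strand) lie side by side with Saa4. Hpx (chr7:105240817-105249344, minus strand) is on the same chromosome but far from them. Hp is at chr8:110301759-110305804 on the minus strand, Cp at chr3:20011090-20063930 on the plus strand, and Orm1 at chr4:63261052-63272189 on the plus strand, next to Orm3 and Orm2. The identifiers in the files are ENSMUSG00000074115 for Saa1, ENSMUSG00000057465 for Saa2, ENSMUSG00000040026 for Saa3, ENSMUSG00000031722 for Hp, ENSMUSG00000030895 for Hpx, ENSMUSG00000003617 for Cp and ENSMUSG00000039196 for Orm1.

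Reads of close copies can be lost or shared in counting, and how reads with several positions were treated is not given in the sources used here. The coding sequences of Saa1 and Saa2 were 95.1% identical over 366 aligned positions, those of Saa1 and Saa3 76.9%, and those of Orm1 and Orm2 89.9%. No stretch of 150 bases, the read length, was identical between whole transcripts of any of these pairs, with 1 transcript taken per gene, yet shorter matches leave the split between Saa1 and Saa2 uncertain. With Saa1 and Saa2 summed into 1 gene, the log2 fold changes were 9.68 for LPS against control, 6.45 for dual treatment against control and -3.22 for dual treatment against LPS. With Orm1, Orm2 and Orm3 summed they were 5.54, 3.25 and -2.28, and all 6 values passed the test by edgeR with the directions of the single genes. Saa3 was not summed with the other Saa genes. Cp shares 108 exonic bases with Hps3 on the opposite strand, and Orm1 shares 198 with the antisense transcript Gm52743, and since use of strand in counting is not given, such reads cannot be told apart. Both overlapping genes are named for their position and not for their values.

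The regions before Saa1 and Saa2 are shown because their letters are nearly the same. The courses of the genes over the 8 mice were also alike (Pearson's r of log2 CPM 0.993), but this was not particular to the pair. Saa2 was closer to Lcn2 (0.9997), and Saa1 was closer to Capza1 (0.997). Whether the shared letters bear on expression was not tested. The sequences are windows of 250 bases before the start in the RefSeq promoter table (build GRCm38.p6), with coordinates from their only match in GRCm39. That start lies inside the gene as annotated in GENCODE M39, so that 143 bases of the Saa1 window and 43 of the Saa2 window are annotated exon, and the whole windows were 94.8% identical. The first 107 bases of each window are printed, which lie outside annotated exons, 5′ to 3′ on the strand of the gene, at chr7:46392548-46392654 (minus strand) and chr7:46401007-46401113 (plus strand), with the match to a C/EBP motif in capitals.
Saa1: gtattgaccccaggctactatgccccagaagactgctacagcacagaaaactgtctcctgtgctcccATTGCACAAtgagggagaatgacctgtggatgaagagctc
Saa2: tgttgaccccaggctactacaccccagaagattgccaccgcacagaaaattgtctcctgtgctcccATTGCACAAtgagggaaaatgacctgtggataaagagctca
The C/EBP motif was searched as TTNNGNAAT on both strands and matched on the strand opposite to the gene as TTGTGCAAT, 183 to 175 bases before the RefSeq start of Saa1 and 184 to 176 before that of Saa2. It was present in 10.2% of 32851 promoter windows of 250 bases. A STAT motif, TTCNNNGAA, was present in 7.02% of the windows and the NF-kB consensus in 3.90%. The table held 6 windows for Saa1, Saa2, Saa3, Hpx and Cp, that of Saa3 being annotated exon over its whole length, and of the 6 2 had the C/EBP motif, 0 the STAT motif and 0 the NF-kB consensus. A match is a description of the letters, and its absence says nothing about a factor. Hp and Orm1 were not matched in that table.

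Other genes that rise in the acute phase were listed, 29 in number, of which 20 could be tested. With LPS 18 rose and 0 fell (median log2 fold change 4.16, against -0.01 over all genes). Of all tested genes 32.6% rose and 33.9% fell. Lcn2, a siderophore-binding protein, went from 149, 106 and 154 CPM in the control mice to 14051, 14500.3 and 10156 CPM in the LPS mice (log2 fold change 6.57, adjusted p = 4.56e-06). The metallothionein Mt2 rose from 0.147, 0.422 and 0.368 to 34.4, 32.0 and 34.6 CPM, and the LPS co-receptor Cd14 from 40.2, 45.0 and 47.5 to 1036, 719 and 629 CPM. Saa4 had 0 counts in all control mice and was at least 21.9-fold higher in LPS mice, against a floor of 3 counts over the group. Itih3 and Serpina3k did not pass. The other 9, among them Crp, Apcs, Fgb and the 5 Serpina1 genes, were too low to test. Saa4 and Mt2 were too low in the control mice to pass the filter through that group. A difference in them, and in any gene of the list as low in control, was thus built into that step.

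The dual-treated mice had 12 of these 20 genes above control and 0 below (median 1.75), but 5 above without dual-treated mouse 2. The shares over all genes were 9.13% higher and 7.02% lower against control, and 31.7% higher and 27.4% lower against LPS. Lcn2 had 4471 and 1199 CPM and Cd14 174 and 107 CPM in dual-treated mice 2 and 5. Against LPS, 18 were lower and 1 was higher (median -2.26, against 0.06 over all genes), and without LPS mice 6 and 7 there were 13 lower and 0 higher. The 1 that was higher, Serpina3k, had 13.7 and 0.395 CPM in the dual-treated mice, so that it rests on mouse 2, and without that mouse it was -1.11 with an adjusted p of 0.431 by edgeR. Not all of these genes stayed above control as the 7 did. The fibrinogen genes Fga and Fgg, the iron hormone gene Hamp and Orm3 rose with LPS and were back in or below the control range in the dual-treated mice. Fgg had 0.832, 0.563 and 0.598 CPM in the control mice, 10.9, 9.59 and 15.2 CPM in the LPS mice and 0.318 and 0.0878 CPM in the dual-treated mice, and Hamp had 4.16, 2.72 and 2.25, 25.6, 36.6 and 17.5 and 2.59 and 2.195 CPM. Orm3, the neighbour of Orm1, had 1.91, 1.27 and 1.38 CPM, 11.2, 12.8 and 8.43 CPM and 1.59 and 1.27 CPM. None of these 4 passed the test between dual-treated and control mice in the edgeR fit to all mice (adjusted p = 0.539 for Fga, 0.0531 for Fgg, 0.569 for Hamp and 0.886 for Orm3), though Fgg was lower by DESeq2 (log2 fold change -1.74, adjusted p = 0.0285) and by edgeR without LPS mouse 7 (adjusted p = 0.0460) and without dual-treated mouse 2 (log2 fold change -2.86, adjusted p = 0.0411).

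Genes whose liver expression falls in the acute phase were listed as well, and 5 of 10 could be tested. With LPS 2 rose (Trf and Fetub), 2 fell (Rbp4 and Ahsg) and 1 did not pass (Alb), with a median of -0.16. These counts lay near the shares over all tested genes, 32.6% higher and 33.9% lower. Against control, the dual-treated mice had 0 higher and 2 lower (median -0.74), and against LPS 1 higher and 3 lower (median -0.89). The shares over all genes were 9.13% higher and 7.02% lower against control, and 31.7% higher and 27.4% lower against LPS. Trf, which encodes transferrin, had 239.6, 252 and 249.5 CPM in the control mice, 424, 351 and 406 CPM in the LPS mice and 249 and 176 CPM in the dual-treated mice. Trf rose with LPS (log2 fold change 0.67, adjusted p = 0.00196), although it is a gene of the falling list in liver. Without LPS mice 6 and 7 the calls with LPS were 1 higher and 0 lower, and the lower count was 1 without control mouse 2, control mouse 4 or LPS mouse 1. Without dual-treated mouse 5 the lower count against control was 1.

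Liver transcripts were close to absent. Of 20 hepatocyte markers, 16 stayed under 1 CPM in every library, and Serpina1a, Serpina1c, Mup20, Cyp3a11 and Hrg had 0 counts in all of them. Alb, which encodes albumin, had 0.636, 0.892 and 0.598 CPM in the control mice, 0.475, 0.635 and 0.781 CPM in the LPS mice and 0.0454 and 0 CPM in the dual-treated mice. The summed level was 22.5, 39.8 and 23.5 CPM in control, 109.6, 132 and 82.3 CPM in LPS and 24.4 and 14.0 CPM in dual-treated mice, most of it from Tat, a hormone-regulated enzyme of tyrosine breakdown (104, 124 and 71.8 CPM in the LPS mice). Of the 5 hepatocyte markers tested, 1 rose and 2 fell with LPS, where 32.6% and 33.9% of all tested genes did. In dual-treated mice 0 were higher and 1 lower than in control mice, where the shares over all genes were 9.13% and 7.02%. Against LPS mice 1 was higher and 3 lower, where the shares were 31.7% and 27.4%. Without LPS mice 6 and 7 these counts were 1 and 1, 0 and 2, and 2 and 3. Apob rose with LPS without LPS mouse 6 (log2 fold change 1.46, adjusted p = 0.0142), and its fall from LPS to dual treatment (-2.15, adjusted p = 0.0254) did not pass without LPS mouse 7 or either dual-treated mouse. Genes on both this list and an acute-phase list include Alb, Apoa1, Apoa2, Ahsg, Ttr, Fgb, Serpina1a and Serpina1c.

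Cytokines that induce the acute phase, their receptors and the glucocorticoid receptor gene Nr3c1 were listed as 19 genes. With LPS 13 rose and 2 fell (median 1.32), and 11 rose and 4 fell with library size only. Over all tested genes 32.6% rose and 33.9% fell with LPS. Il6 had 1.17, 1.27 and 0.644 CPM in the control mice, 199.8, 33.4 and 85.7 CPM in the LPS mice and 2.59 and 0.659 CPM in the dual-treated mice. Il6 was highest in LPS mouse 1, whereas Saa1, Saa2, Saa3 and Orm1 were highest in LPS mouse 6. Osm, which encodes oncostatin M, had 1.27, 0.751 and 1.38, 51.0, 26.9 and 26.5 and 3.68 and 3.34 CPM, and Il1b had 12.2, 10.7 and 9.79, 122, 105 and 90.8 and 34.7 and 60.0 CPM. The decoy receptor gene Il1r2 went from 1.66, 1.69 and 1.66 to 171, 173 and 126 CPM with LPS (log2 fold change 6.54, adjusted p = 2.68e-07) and to 65.3 and 39.8 CPM with dual treatment. Between dual-treated and control mice 5 were higher and 4 lower (median 0.25), where the shares over all genes were 9.13% and 7.02%. These counts were 6 and 2 with library size only. The lower count was 2 without any 1 of the control mice and 1 without dual-treated mouse 2. Il1b (log2 fold change 2.12, adjusted p = 0.000351 by edgeR), Il1rn (1.36, 0.00473) and Il1r2 (4.97, 9.39e-06) were among the higher. Nr3c1 was among the lower (log2 fold change -0.47, adjusted p = 0.0470 by edgeR). Il6 did not pass there (adjusted p = 0.706), while Saa1, Saa2, Saa3 and the others did. Whether Il6 and the 7 genes differ in this was not tested. Against LPS, 13 were lower in dual-treated mice and 2 higher (median -0.64), where 27.4% of all genes were lower and 31.7% higher. The higher count was 1 without control mouse 4 or LPS mouse 7 and 0 without dual-treated mouse 5. Il6 was lower by edgeR (log2 fold change -6.04, adjusted p = 0.000284), and its value was -5.21 without LPS mouse 1, -7.33 without dual-treated mouse 2 and -5.36 without mouse 5. Its rise with LPS, 6.69, was 5.86 without LPS mouse 1 and 7.60 without LPS mice 6 and 7.

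Transcription factors of acute-phase genes and their feedback inhibitors were listed as 20 genes, of which 17 could be tested. With LPS 15 rose and 2 fell (median 2.27), where 32.6% of all tested genes rose and 33.9% fell. Stat3, the factor activated by interleukin 6, had 260.0, 229 and 241 CPM in the control mice, 1128, 919 and 948 CPM in the LPS mice and 296 and 249.99 CPM in the dual-treated mice. Its inhibitor Socs3 had 76.3, 102 and 105, 980.4, 729 and 766 and 187 and 170.3 CPM, and Cebpd, a C/EBP factor induced in inflammation, had 86.2, 91.6 and 94.7, 1292, 941 and 1067 and 357 and 176 CPM. The genes that fell with LPS were Cebpa (log2 fold change -1.09) and Foxa2 (-1.77), which encode factors of the resting epithelium and liver. Dual-treated mice had 6 of the 17 above control and 2 below (median 0.17), where the shares over all genes were 9.13% and 7.02%. These counts were 7 and 1 with library size only, and 1 was below without any 1 of the control or dual-treated mice. Socs3 (0.92, adjusted p = 0.00745), Relb (1.27, 0.000426) and Nfkbia (1.19, 0.00387) were above control, and Stat3 did not pass (adjusted p = 0.461 by edgeR). Against LPS 14 were lower and 2 higher (median -1.50), led by Socs1 (-4.32, adjusted p = 6.13e-06) and Rel (-2.83, adjusted p = 7.69e-06). The higher ones were again Cebpa and Foxa2. Over all genes 27.4% were lower and 31.7% higher in that comparison.

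Hp, Hpx and Cp act in a pathway that clears haemoglobin and haem and handles iron and copper, listed here as 20 genes with 19 tested. With LPS 7 rose and 7 fell (median 0.16), where 32.6% of all tested genes rose and 33.9% fell. Dual-treated mice had 10 above control and 0 below (median 0.57), where the shares over all genes were 9.13% and 7.02%. They had 6 above without control mouse 2 and 1 below without LPS mouse 6. Against LPS they had 8 higher and 4 lower (median 0.30), which was 12 and 4 with library size only and 5 and 4 without LPS mice 6 and 7. Over all genes 31.7% were higher and 27.4% lower there, and with library size only the calls numbered 7889 and 3225 of 18560. Cd163, the macrophage receptor for haptoglobin bound to haemoglobin, had 9.003, 7.98 and 6.12 CPM in the control mice, 2.91, 4.62 and 5.25 CPM in the LPS mice and 39.1 and 21.5 CPM in the dual-treated mice. Its dual-treated values were above those of the other 6 mice, while Hp was highest in the LPS mice. Cd163 was higher in dual-treated than in control mice (log2 fold change 1.98, SE 0.298, adjusted p = 0.00253) and than in LPS mice (2.83, SE 0.310, adjusted p = 6.58e-05). Its fall with LPS (-0.85, adjusted p = 0.0254) did not pass without LPS mouse 1, without control mouse 1 or without control mouse 2 (adjusted p = 0.0818, 0.0826 and 0.0592).

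Lrp1, the hemopexin receptor, had 586, 499 and 579 CPM in control, 663, 644 and 714 CPM in LPS and 893 and 768 CPM in dual-treated mice, and its adjusted p between LPS and control mice was 0.0560 by edgeR. It was called there by DESeq2 (log2 fold change 0.31, adjusted p = 0.0182) and without dual-treated mouse 2 (adjusted p = 0.0485). In dual-treated mice Lrp1 was above control (log2 fold change 0.58, SE 0.129, adjusted p = 0.0152), a call that did not pass without dual-treated mouse 2, control mouse 2 or control mouse 4 (adjusted p = 0.133, 0.0758 and 0.0531), and it was called above LPS with library size only (0.63, adjusted p = 0.00269). Hmox1, the inducible haem oxygenase, had 47.2, 64.2 and 46.9, 147, 139 and 109 and 266 and 169 CPM. Hmox1 rose with LPS (log2 fold change 1.32, SE 0.199, adjusted p = 0.000282) and was also above control in dual-treated mice (log2 fold change 2.04, SE 0.217, adjusted p = 0.000397). Its difference between dual-treated and LPS mice (0.72, adjusted p = 0.0161) did not pass without dual-treated mouse 2 (adjusted p = 0.204) or without LPS mice 6 and 7 (adjusted p = 0.151). The ferritin gene Fth1, which had 2151, 2044 and 2179.8, 9506, 9381 and 7854 and 4236 and 3295 CPM, and the metal reductase gene Steap4, which had 14.6, 14.9 and 11.9, 328, 252 and 305 and 121 and 79.3 CPM, had the order of the 7 genes. Atp7b, a copper transporter that loads ceruloplasmin in the liver, had the opposite course, with 91.2, 84.9 and 90.6 CPM in control, 15.0, 13.9 and 25.3 CPM in LPS and 80.1 and 64.0 CPM in dual-treated mice (log2 fold change with LPS -2.30, adjusted p = 1.16e-05).

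Haemoglobin transcripts, the mRNA of red cells and their precursors, had a course of their own. Of 7 erythrocyte markers 1 rose with LPS and 0 fell, where 32.6% of all tested genes rose and 33.9% fell. With library size only 1 rose and 1, Hbb-bs, fell, and Hbb-bs also fell without LPS mouse 1. In dual-treated mice 0 were higher and 5 lower than in control mice, where the shares over all genes were 9.13% and 7.02%. Against LPS mice 0 were higher and 7 lower, where the shares were 31.7% and 27.4%. Hba-a1 had 613, 1233 and 908 CPM in the control mice, 1071, 782 and 515 CPM in the LPS mice and 156 and 146 CPM in the dual-treated mice. Both dual-treated mice were below every other mouse. The list summed to 1737, 3919 and 2789 CPM in control, 3308, 1895 and 1482 CPM in LPS and 428 and 382 CPM in dual-treated mice, with Hbb-bs the most abundant. The part of blood left in the tissue in the values of Hp and Hpx was not tested.

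**Figure D3:**
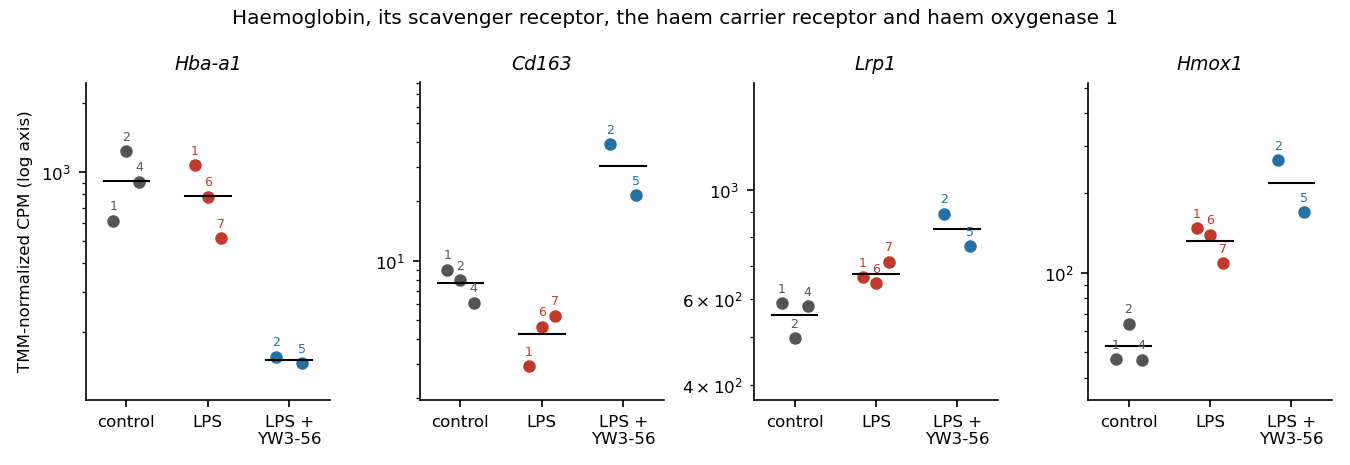
TMM-normalized CPM of Hba-a1, Cd163, Lrp1 and Hmox1 in each mouse, on log axes, with a line at each group mean. Hba-a1 was lowest and Cd163 highest in the dual-treated mice 2 and 5, at 156 and 146 and at 39.1 and 21.5 CPM.

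Receptors of serum amyloid A were listed as 11 genes, and 10 could be tested. With LPS 4 rose and 3 fell (median 0.51), where 32.6% of all tested genes rose and 33.9% fell. In dual-treated mice 3 were above control and 2 below (median 0.24), where the shares over all genes were 9.13% and 7.02%. The 2 lower ones did not pass without dual-treated mouse 2 or without control mouse 2. Against LPS 4 were higher and 3 lower (median 0.09), where the shares over all genes were 31.7% and 27.4%. Fpr2, the formyl peptide receptor that binds serum amyloid A, had 9.98, 5.87 and 9.70 CPM in the control mice, 52.7, 75.8 and 38.7 CPM in the LPS mice and 73.1 and 72.0 CPM in the dual-treated mice. Both dual-treated mice were thus within the range of the LPS mice in Fpr2, although not in Saa3, and the adjusted p of Fpr2 between them was 0.245 by edgeR. Fpr2 was called higher in dual-treated mice with library size only (0.71, adjusted p = 0.0402) and without LPS mouse 6 (0.66, adjusted p = 0.0399). Tlr2 had 14.4, 13.4 and 14.0, 145, 95.1 and 76.6 and 38.3 and 33.7 CPM and followed the order of the Saa genes. The scavenger receptor gene Cd36 had 956, 1014 and 986, 279, 220.1 and 240.2 and 647 and 657 CPM and fell with LPS (adjusted p = 1.34e-06 by edgeR).

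Markers of the lung's own cells and of leukocytes were counted in the same way, and their part in the values of the 7 genes was not tested. Beside their counts, 32.6% of all tested genes rose and 33.9% fell with LPS, 9.13% were higher and 7.02% lower in dual-treated than in control mice, and 31.7% were higher and 27.4% lower in dual-treated than in LPS mice. All 13 neutrophil markers rose with LPS, and 8 were above control in dual-treated mice, where 4 were higher and 5 lower than in LPS mice, or 1 higher and 4 lower without LPS mice 6 and 7. Their sum, led by S100a9, was 350.2, 277 and 199 CPM in control, 2824, 3704 and 2543 CPM in LPS and 2099 and 2597 CPM in dual-treated mice. The neutrophil sum was thus higher in dual-treated mouse 5 than in mouse 2, the reverse of the 7 genes. Ltf is on this list and on the iron list. Of 9 club and airway secretory markers 7 rose and 2 fell with LPS, 0 were higher and 4 lower in dual-treated than in control mice, and 1 was higher and 7 lower in dual-treated than in LPS mice. Their sum, led by Scgb1a1, was 32095, 40699 and 37508 CPM, 71567, 62789 and 62076 CPM and 24935 and 26840.3 CPM in the 3 groups. The sum was therefore highest in the LPS mice, as the 7 genes were, but lower in dual-treated than in control mice, where the 7 genes were higher.

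Of 11 monocyte and macrophage markers 3 rose and 4 fell with LPS (3 and 2 without LPS mice 6 and 7), near the shares over all genes, 9 were higher and 0 lower in dual-treated than in control mice, and 10 were higher and 0 lower in dual-treated than in LPS mice, with 7 higher without LPS mice 6 and 7. Their sum, mostly Lyz2, was 6267, 5792 and 7708 CPM in control, 5803, 4782 and 3447 CPM in LPS and 6761 and 9086 CPM in dual-treated mice. In dual-treated against LPS mice this list was therefore raised where Hp, Hpx and the Saa genes were reduced. Against control mice, its called markers and the 7 genes were all higher in dual-treated mice. Of 10 alveolar macrophage markers, led by Chil3, 1 rose and 3 fell with LPS, 1 was higher and 0 lower in dual-treated than in control mice, and 4 were higher and 1 lower in dual-treated than in LPS mice, with sums of 1030.0, 761 and 981 CPM, 1119.8, 1174 and 636 CPM and 1133 and 1818 CPM in the 3 groups. Alveolar type 2 markers, led by Sftpc, are those of the cells that make surfactant, and 1 of 9 rose and 7 fell with LPS (1 and 3 without LPS mice 6 and 7), with 0 called between dual-treated and control mice by edgeR (1 higher and 2 lower at an unadjusted p under 0.05, and 1 and 1 by DESeq2) and 4 higher and 0 lower in dual-treated than in LPS mice. Their sums were 39138, 32888 and 41120.2 CPM, 29466, 21156 and 17335 CPM and 21766 and 32132 CPM, so every treated mouse was below every control mouse in this sum. Of 7 alveolar type 1 markers 1 rose and 4 fell with LPS, 0 were higher and 2 lower in dual-treated than in control mice, and 4 were higher and 2 lower in dual-treated than in LPS mice, with sums led by Ager of 5184, 4887 and 5005 CPM, 3845, 3229.8 and 2282 CPM and 2673 and 3631 CPM. Ager is also on the receptor list, and Car4 is on the alveolar macrophage and the endothelial lists.

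Of 9 endothelial markers 0 rose and 6 fell with LPS, 1 was higher and 1 lower in dual-treated than in control mice, and 5 were higher and 0 lower in dual-treated than in LPS mice, with sums led by Cdh5 of 3524, 4072 and 4202 CPM, 2415, 1996 and 1927 CPM and 3695 and 4031 CPM. Of 7 ciliated cell markers, led by Tppp3, 4 rose and 2 fell with LPS. Between dual-treated and control mice 0 were called by edgeR (1 higher and 1 lower at an unadjusted p under 0.05, and 0 by DESeq2). In dual-treated mice 1 was higher and 4 lower than in LPS mice, or 2 and 2 with library size only. The ciliated sums were 509, 614 and 635 CPM, 560.3, 533 and 652 CPM and 451 and 527 CPM. The 4 that rose were 0 with library size only and 1 without LPS mice 6 and 7. Of 8 fibroblast markers, led by Npnt, 2 rose and 4 fell with LPS, 0 were higher and 2 lower in dual-treated than in control mice, and 3 were higher and 1 lower in dual-treated than in LPS mice, with sums of 1581, 1663 and 1524 CPM, 1282, 1325 and 1226 CPM and 1701 and 1229 CPM. Without LPS mice 6 and 7 the fibroblast counts with LPS were 1 higher and 2 lower, and those in dual-treated against LPS mice 2 and 2. Of 6 mesothelial markers, led by Msln, 0 rose and 5 fell with LPS (0 and 3 without LPS mice 6 and 7), 0 were called between dual-treated and control mice by edgeR (0 higher and 1 lower at an unadjusted p under 0.05, and 0 by DESeq2), and 4 were higher and 0 lower in dual-treated than in LPS mice, with sums of 824, 749 and 804 CPM, 527, 466 and 398 CPM and 649 and 939 CPM. Of 10 adipocyte markers 0 rose and 1 fell with LPS, and 2 were higher and 0 lower in dual-treated than in LPS mice, with 0 and 0 without LPS mice 6 and 7. Between dual-treated and control mice 0 of the adipocyte, squamous or muscle markers were called by edgeR, at an unadjusted p under 0.05 as well, or by DESeq2, but without LPS mice 6 and 7 there were 1 squamous marker higher and 2 lower and 1 muscle marker lower. Squamous markers could be tested for 12 of 13 genes, of which 10 rose and 0 fell with LPS, but 0 rose and 3 fell without LPS mice 6 and 7. In dual-treated mice 0 squamous markers were higher and 10 lower than in LPS mice, or 3 higher and 0 lower without LPS mice 6 and 7. Of 9 muscle markers tested 9 rose and 0 fell with LPS, against 0 and 0 without LPS mice 6 and 7, and 0 were higher and 8 lower in dual-treated than in LPS mice, or 1 higher and 2 lower without LPS mice 6 and 7.

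Likeness to each gene was measured as Pearson's r of log2 CPM over the 8 libraries, which mostly reflects the separation of the groups, and no p is given. The 3 genes most like Saa1 were Capza1 (0.997), Gsr (0.996) and Nfkbie (0.996), and those most like Saa2 were Lcn2 (0.9997), Serpina3n (0.997) and C1ra (0.997). For Saa3 they were Serpina3h (0.996), Nup107 (0.996) and Oas3 (0.994). For Hp they were Ubtd1 (0.996), Tsr1 (0.995) and Vnn3 (0.994), and for Hpx Syne4 (0.999), Lsg1 (0.997) and Gm4841 (0.996). Cp was most like Ibtk (0.998), Orm2 (0.995) and Mthfd1l (0.995), and Orm1 was most like Ackr1 (0.996), Mthfd1l (0.996) and Bcl2l15 (0.994). Lcn2, Serpina3n and Orm2 in these lists are acute-phase genes themselves. Mthfd1l, an enzyme of mitochondrial folate metabolism, was thus among the nearest of both Cp and Orm1. Many genes came close, since between 5 and 52 genes per member had the same rank order of mice, at a Spearman rho of 1, so that measure gives no order among them. Among the 7 genes r ranged from 0.860 for Saa3 and Hpx to 0.993 for Saa1 and Saa2.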

How the data were processed

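RNA of 8 mouse lungs was analysed. The authors trimmed the reads with Trim Galore after FastQC 0.11.9, aligned them to GRCm39 with HISAT2 2.2.1, counted them per gene with featureCounts 2.0.1 and deposited raw counts for each mouse. The annotation release, strand setting and treatment of reads with several positions are not given in the sources used here. Gene symbols and coordinates came from GENCODE M39, which matched 54749 of 55416 identifiers, and the other 667 held 0.0533% of counts.

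Tests used edgeR 4.0.16 (R 4.3.3), with filterByExpr by group, TMM scaling and 1 quasi-likelihood fit with group as the only factor over the 8 mice (5 residual degrees of freedom). A gene was called at a Benjamini-Hochberg adjusted p under 0.05 over 18560 genes. Standard errors were the size of the log2 fold change divided by the root of its F statistic. The procedure was tested on simulated counts. DESeq2 1.42.0, the authors' tool, their criterion of fold over 2 and unadjusted p under 0.05, other scalings and filters, summed paralogs and the omission of libraries were alternatives. Log2 CPM for likeness used a prior count of 2.

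The 7 genes, the pathway and marker lists and the alternatives were chosen with earlier results of these data known. Genes named are the 7, genes of those lists with the count of the list, and the 3 most like each of the 7. P-values set a difference between groups against the spread between mice within groups. That spread was estimated over all groups together, with information shared across genes. With 3 mice against 3 or 2, exact permutation tests cannot reach the threshold and were not used.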

Additional observations from a re-analysis of the deposited data

How the results depend on the processing

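Across 18 alternatives for each comparison, 360 fold changes of the 7 genes were recomputed. Of these, 354 kept their direction and side of the threshold, 6 kept their direction but did not pass, and 0 reversed. With at least 10 counts required in every library, Saa1, Saa2 and Orm1 were not tested because their control counts are low, and the number of genes called was 4 in LPS against control, 4 in dual treatment against control and 4 in dual treatment against LPS. Leaving out each mouse in turn, log2 fold changes with LPS ranged from 8.98 to 10.08 for Saa3, 2.75 to 3.08 for Hp, 5.32 to 5.75 for Hpx and 2.43 to 2.65 for Cp. For dual treatment against LPS they ranged from -3.82 to -2.96 for Saa1, -4.78 to -2.24 for Saa2, -2.48 to -1.87 for Saa3, -1.78 to -1.10 for Hp, -4.39 to -3.95 for Hpx, -1.73 to -0.53 for Cp and -4.15 to -1.52 for Orm1. No paired analysis was possible because the groups share fewer than 2 mouse numbers and nothing says that a number marks a litter or day. Over all genes, 12346 calls with LPS became 7450 with fold over 2 and unadjusted p under 0.05 and 7279 with fold over 2 and adjusted p, and 10960 calls between dual treatment and LPS became 6554 and 6264. The 2997 calls between dual treatment and control became 1944 and 1327 with those criteria, 1788, 1553 and 1710 without control mouse 1, 2 or 4, and 1220 without dual-treated mouse 2. Of 642 list counts, 568 stayed within 1.5 times and 74 moved further. The canonical transcript length, chosen after seeing the data, raised most levels per kilobase and placed Saa3 above Hp in LPS mice. With Spearman rho, 1 of 21 places was shared, but its first places are tied. Depth limits Saa2, whose control libraries held 2 counts in all. The cause of the moves between single mice was not tested.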
